A study of Mus musculus with 9 samples.

Results

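The genes described here are Myc and 43 genes whose products build ribosomes or feed their assembly, 44 of the 13116 named genes tested in mouse LSK cells. They were listed by symbol as a pathway, with earlier results of these data known: box C/D and box H/ACA snoRNP proteins, nucleolar organisers, RNA polymerase I and its factor Ubtf, processing factors of the small and large subunits, and 5 metabolic or mitochondrial genes that Myc is known to act on. All 44 were measured, by 56 probes that were well above background on all 9 arrays. The LSK fraction of bone marrow (lineage-negative, Sca-1-positive, Kit-positive) holds haematopoietic stem cells and multipotent progenitors.

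There were 3 groups of 3 arrays. The cells of the first carried DNMT3A R882H, a substitution in a de novo DNA methyltransferase that recurs in acute myeloid leukaemia. Those of the second carried wild-type DNMT3A (WT) and those of the third an empty vector (EV). In every group the vector was marked with GFP, the cells came from transplanted C57BL/6 mice and were sorted as LSK cells, and an input of 3.67 ng of RNA was amplified into cDNA. WT and R882H denote added copies, and the labels name no deletion of the cells' own Dnmt3a. The labels give neither the promoter of the vector, nor the age of the mice, nor whether replicates came from separate animals, so the p-values measure a spread between arrays that may be technical only.

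Ribosome production starts in the nucleolus, where RNA polymerase I copies the ribosomal RNA genes. The transcript is then modified by small nucleolar ribonucleoproteins (snoRNPs), cut, and assembled with proteins into the small and large subunits. Myc is a transcription factor that pairs with Max, binds E-box sequences such as CACGTG and is known to raise many of these genes as cells grow. In blood, quiescent stem cells make protein slowly, and progenitors that enter differentiation make it faster.

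The sequences around the starts of these genes were read from RefSeq (GRCm38.p6), as 300 bases that run from 250 before to 50 after an annotated start, for 39 of the 44 genes. Srm, Bop1, Rrp12, Myc and Fbl were not matched. CACGTG, the same on both strands, was found in 8 of 48 windows (16.7%) belonging to 8 genes, against 9.61% of the windows of all genes tested and 7.15% of all windows. In the 50 bases after the start it stood in 7 windows (14.6%) of these genes, against 1.44% of the windows of genes tested and 1.08% of all windows. The variant CACGCG, whose other strand reads CGCGTG, stood in 14 windows (29.2%) of 12 genes, against 15.9% of windows of genes tested and 9.27% of all windows. Its matches do not overlap those of CACGTG in these windows, though matches on the 2 strands can overlap each other, as in Mybbp1a. A match describes letters in a window and shows no binding. The 8 CACGTG matches are shown with up to 10 flanking bases, the motif in capitals, because they are the letters Myc and Max are known to prefer.
Ltv1 (chr10:13193094-13193119, - strand): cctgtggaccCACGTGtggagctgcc
Mybbp1a (chr11:72441357-72441376, + strand): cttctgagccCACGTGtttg
Nle1 (chr11:82908357-82908382, - strand): ggttctcctcCACGTGgggacgcagg
Nop2 (chr6:125131813-125131838, + strand): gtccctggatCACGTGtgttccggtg
Pes1 (chr11:3963967-3963992, + strand): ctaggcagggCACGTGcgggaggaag
Tsr1 (chr11:74898094-74898119, + strand): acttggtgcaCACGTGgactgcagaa
Utp20 (chr10:88826765-88826787, - strand): gcactaactaCACGTGaggaaaa
Wdr43 (chr17:71616222-71616247, + strand): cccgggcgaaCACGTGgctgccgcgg

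Whole windows are shown for Pes1, with a CACGTG at its start, for Mybbp1a, with both motifs, and for Nhp2, which has the variant alone. Capitals mark either motif on either strand.
Pes1 (chr11:3963725-3964024, + strand): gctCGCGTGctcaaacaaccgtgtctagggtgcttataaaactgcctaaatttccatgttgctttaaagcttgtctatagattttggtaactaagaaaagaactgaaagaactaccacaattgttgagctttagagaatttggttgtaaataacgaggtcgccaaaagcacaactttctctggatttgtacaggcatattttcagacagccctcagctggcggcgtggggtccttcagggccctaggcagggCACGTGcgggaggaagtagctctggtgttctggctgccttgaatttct
Mybbp1a (chr11:72441077-72441376, + strand): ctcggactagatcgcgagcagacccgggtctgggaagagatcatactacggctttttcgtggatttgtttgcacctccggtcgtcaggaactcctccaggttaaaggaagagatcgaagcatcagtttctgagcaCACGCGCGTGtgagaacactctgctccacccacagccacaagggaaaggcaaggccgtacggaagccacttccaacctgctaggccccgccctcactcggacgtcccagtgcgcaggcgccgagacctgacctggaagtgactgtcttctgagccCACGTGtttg
Nhp2 (chr11:51619523-51619822, + strand): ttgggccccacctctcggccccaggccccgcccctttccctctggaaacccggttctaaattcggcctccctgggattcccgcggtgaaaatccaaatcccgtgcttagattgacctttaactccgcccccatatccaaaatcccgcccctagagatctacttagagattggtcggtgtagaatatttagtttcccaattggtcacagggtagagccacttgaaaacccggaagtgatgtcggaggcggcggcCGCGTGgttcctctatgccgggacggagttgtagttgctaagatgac

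Signals are log2 processed intensity minus the 75th percentile of the array, so 0 is the 75th percentile and 1 unit is a factor of 2. Values of one gene are compared between arrays only, since probes differ in brightness for the same amount of RNA. The arrays sat on 3 slides. Slide 1 held EV 1 to 3 and WT 1, slide 2 held R882H 1, R882H 2, WT 2 and WT 3, and slide 3 held R882H 3, so no slide held both R882H and EV. Between 53.4% and 64.8% of the probes of an array were well above background.

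The labels of the deposited files go against each other, and every result below rests on which are right. The authors' deposited table of processed values has 1 column per sample, and only 2 of its 9 columns match the scanner file of the sample they are named for, EV 1 and EV 2. The other 7 match another sample, 4 of them in another group. The column named WT 1 held the values of array EV 3, WT 2 those of R882H 1, EV 3 those of WT 1 and R882H 3 those of WT 3, with r of at least 0.999961 in every column across 41854 probes. In the order of the table's columns, the matched arrays ran as EV 1 to 3, R882H 1 to 3 and WT 1 to 3. The column names ran in another order. The groups given here follow the labels of the scanner files. With the table's columns taken as named, the median difference of the 44 genes was -0.01 between R882H and EV, with 26 of 44 lower. It was 0.07 between R882H and WT, with 15 lower, and -0.09 between WT and EV, with 31 lower.

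LSK marker genes were all measured: the 10 of the list included Kit and Ly6a, which encodes Sca-1. Their summed linear level, relative to the 75th percentile, was 88.3 to 99.97 in R882H, 81.4 to 109.6 in WT and 62.4 to 107 in EV arrays. Of the 10, 9 had a higher mean in R882H than in EV, with a median of 0.26, and 8 a higher mean than in WT, with a median of 0.54. Slamf1, counted in both, was well above background on 3 R882H, 1 WT and 2 EV arrays. A gene was kept if any group had it well above background on all its arrays. Slamf1 was thus kept through R882H alone, which favours a higher R882H mean. None passed the adjusted threshold. Markers of differentiated cells were present as well. Of 10 granulocyte and monocyte markers 7 were measured, among them the granule proteins Mpo, Elane, Ctsg and Prtn3, while Ly6c2, Ly6g and S100a8 were not. Their summed level was 304 to 442 in R882H, 374 to 633 in WT and 366 to 750 in EV arrays. No gene among the 13116 reached an adjusted p under 0.05 in any of the 3 comparisons (limma with Benjamini-Hochberg adjustment), with 1184, 1051 and 780 genes at an unadjusted p under 0.05 for R882H against EV, R882H against WT and WT against EV. In bulk RNA, fewer cells of a type and less RNA per cell cannot be told apart.

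The comparison of R882H with EV asks how cells with the mutant enzyme differ from cells with the vector alone. The mean was lower in R882H for 43 of the 44 genes, with a median difference of -0.23 log2 units (0.855-fold), against 52% of all genes lower and a median of -0.02. Single differences ran from -0.71 for Rrp12 to 0.02 for Ubtf, with SEs of 0.13 to 0.40. None passed the adjusted threshold, the adjusted p lying between 0.527 and 0.995. At an unadjusted p under 0.05, 3 of 44 (Rrp12, Nhp2 and Gar1) were lower and 0 higher, where 3.47% of all genes were lower and 5.56% higher. In 8 of 44 genes all R882H arrays lay below all EV arrays, where 8.76% of all genes did so, and in 0 all lay above, where 9.5% did. These 8 were Dkc1, Gar1, Ncl, Nop14, Nop16, Ddx21, Noc2l and C1qbp, each read on its brightest probe.

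**Figure D1:**
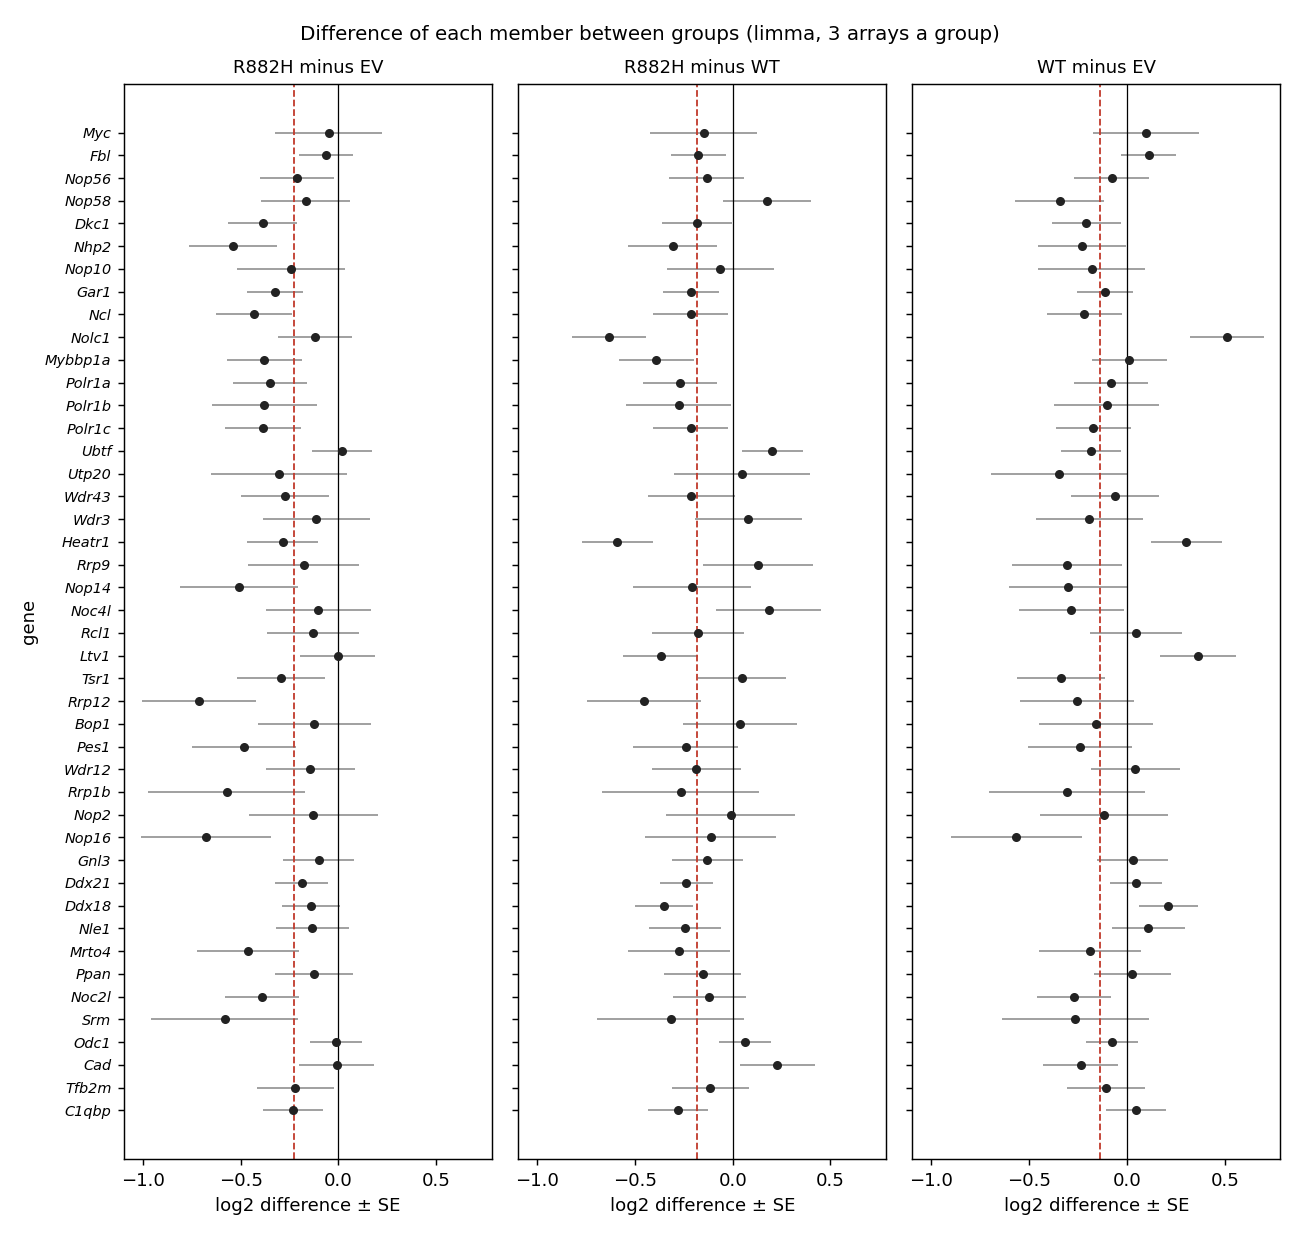
Difference of group means for each of the 44 genes in log2 units, with bars of 1 SE from limma on 9 arrays (3 per group), for R882H minus EV, R882H minus WT and WT minus EV. A solid line marks 0 and the dashed line the median of the 44 genes. In the first panel 43 of 44 points lie left of 0, and 23 of the 44 bars do not reach 0.

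The arrays of a group differed as much as the groups did. The median over the 44 genes, each centred on its own mean over the 9 arrays, was -0.23, -0.28 and 0.09 log2 units on R882H arrays 1 to 3. It was 0.03, -0.18 and 0.26 on the WT arrays and 0.14, -0.02 and 0.31 on the EV arrays. The group means of these array medians were -0.14 ± 0.20 for R882H, 0.03 ± 0.22 for WT and 0.14 ± 0.17 for EV (SD, n = 3 each). R882H 1 and R882H 2 were the lowest of all arrays, WT 2 came next, and R882H 3 lay above EV 2 and WT 1. The groups overlapped.

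Single genes followed the same arrays. The lowest of the 9 values fell on R882H 1, R882H 2 or WT 2 in 40 of 44 genes, and the highest on EV 3 or WT 3 in 27. Replicate 3 was the highest of its group in 40 genes for R882H, 32 for WT and 30 for EV. Replicate 2 was the lowest of its group in 28, 36 and 31 genes for R882H, WT and EV.

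**Figure D2:**
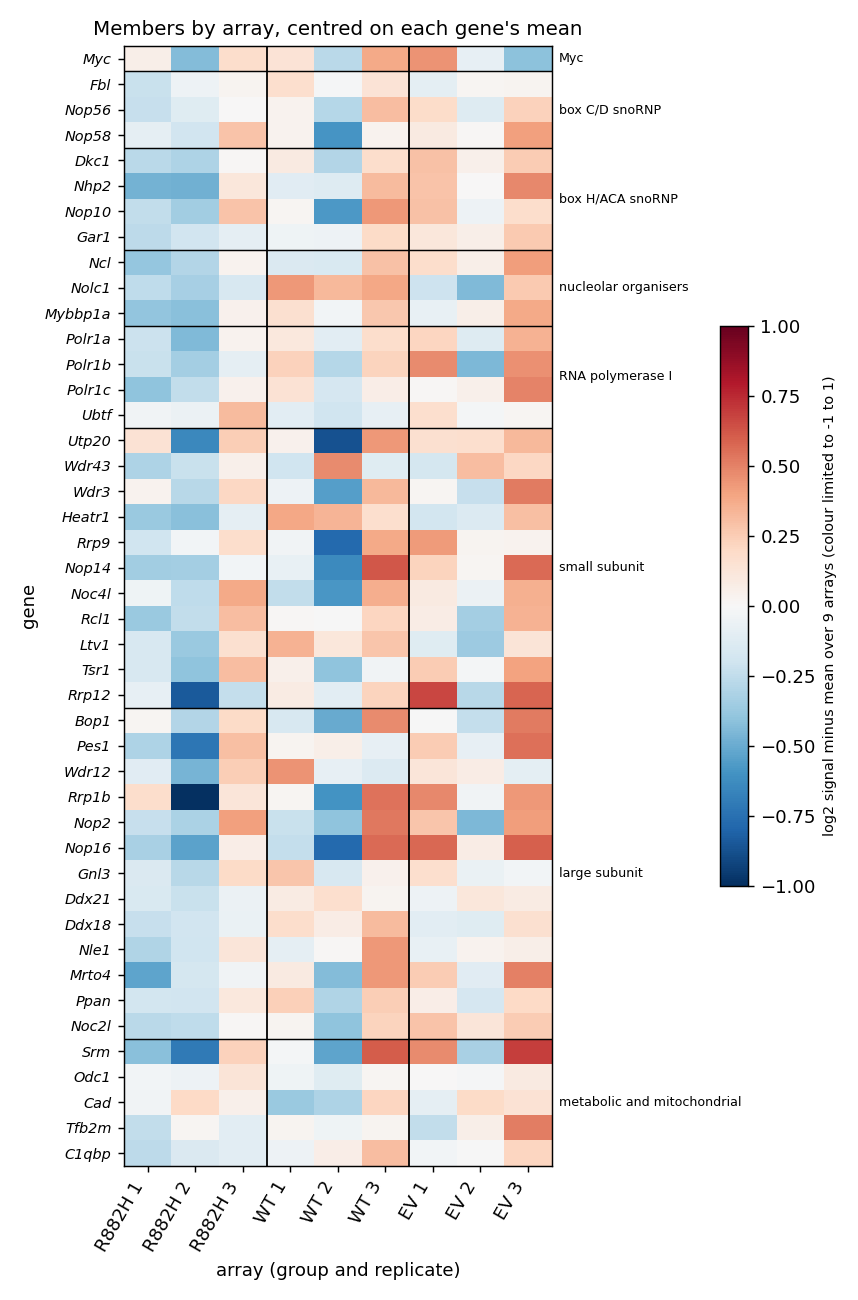
Signal of the 44 genes on each array, as log2 units from the gene's own mean over the 9 arrays, genes in rows by role and arrays in columns as R882H, WT and EV replicates 1 to 3. The columns of R882H 1, R882H 2 and WT 2 are mostly low, and those of WT 3 and EV 3 mostly high.

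Granule protein genes among the granulocyte and monocyte markers followed the 44 genes on the lowest and highest arrays, though not on WT 2. The median of all 7 markers, centred the same way, was -0.99, -0.82 and 0.04 on the R882H arrays, -0.12, 0.00 and 0.78 on the WT arrays and 0.18, -0.35 and 1.02 on the EV arrays. Both sets were lowest on R882H 1 and R882H 2 and highest on EV 3 and WT 3. On WT 2 the 44 genes were low, at -0.18 against 0.03 on WT 1, while the markers were higher on WT 2 than on WT 1. Mpo, which encodes myeloperoxidase, read 5.91, 6.08 and 6.92 on the R882H arrays, 6.79, 7.19 and 7.68 on the WT arrays and 7.09, 6.56 and 7.93 on the EV arrays. Mpo, Elane, Ctsg and Prtn3 differed between R882H and EV by -0.89, -1.72, -1.32 and -1.40. The other 3 markers did not follow, Csf1r, the receptor of monocytes and macrophages, differing by less than 0.01, Itgam by -0.09 and Lyz2 by 0.09. The median of the 10 LSK markers, centred alike, was 0.23, 0.47 and 0.04 on the R882H arrays, 0.30, 0.00 and -0.35 on the WT arrays and -0.09, 0.25 and -0.74 on the EV arrays. It was highest on R882H 2, where the 44 genes were lowest, and lowest on EV 3 and WT 3, where they were highest. The part of either set of markers in the differences of the 44 genes was not tested.

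**Figure D3:**
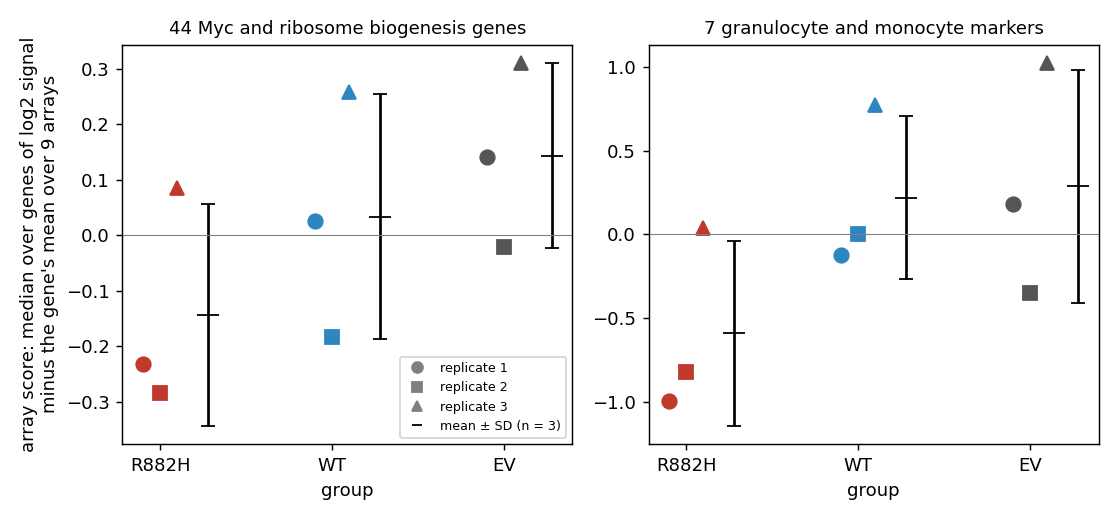
Median over genes of the centred signal per array, in log2 units, for the 44 genes (left) and 7 granulocyte and monocyte markers (right), with 1 point per array, its shape giving the replicate, and bars for the mean ± SD of each group (n = 3), as R882H, WT and EV. In both sets 2 of the 3 R882H arrays lie lowest, and the third lies among the WT and EV arrays.

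Myc itself was close to level between the groups. It read 3.39, 2.90 and 3.50 on the R882H arrays, 3.46, 3.06 and 3.70 on the WT arrays and 3.77, 3.24 and 2.92 on the EV arrays. EV 3, which was high for most of the 44 genes, was the lowest EV array for Myc, and the groups overlapped. The difference was -0.05 ± 0.27 (SE) between R882H and EV, with a limma adjusted p of 0.951. It was -0.15 ± 0.27 between R882H and WT and 0.10 ± 0.27 between WT and EV. Of 19 listed genes of the Myc network, which holds the partners and antagonists of Myc, 17 were measured. Of these, 11 were lower in R882H than in EV, with a median of -0.09. The other 6 were higher, with the largest differences at 0.96 for Mycn and 0.64 for Mxd1. Max, the partner with which Myc binds DNA, read 4.06, 3.88 and 3.91 on the R882H arrays against 4.08, 4.13 and 4.23 on the EV arrays. Its R882H values were all below its EV values, at an adjusted p of 0.634. Max was the 1 gene of the 17 without overlap, where 8.76% of all genes lay lower in this way.

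The box H/ACA snoRNP guides pseudouridylation of ribosomal RNA, and all 4 of its proteins were lower in R882H than in EV, with a median of -0.36. Dkc1, the pseudouridine synthase, read 1.90, 1.86 and 2.18 on the R882H arrays, 2.26, 1.88 and 2.35 on the WT arrays and 2.47, 2.22 and 2.42 on the EV arrays. The R882H values were all below the EV values, by the narrow gap between R882H 3 and EV 2, and overlapped the WT values. Nhp2, a core protein that holds the guide RNA, read 2.34, 2.33 and 2.92 on the R882H arrays, 2.69, 2.68 and 3.13 on the WT arrays and 3.10, 2.82 and 3.29 on the EV arrays. R882H 3 lay above EV 2, so the groups overlapped. The Nhp2 difference from EV was -0.54 ± 0.23 (SE), with a limma adjusted p of 0.534. Gar1, a core protein that helps release the modified RNA, read 4.45, 4.52 and 4.62 on the R882H arrays, 4.67, 4.66 and 4.91 on the WT arrays and 4.82, 4.77 and 4.97 on the EV arrays. Every R882H value of Gar1 was below every WT and EV value. Its difference was -0.33 ± 0.14 from EV (adjusted p of 0.552) and -0.21 ± 0.14 from WT (adjusted p of 0.715). Nop10, the smallest core protein, differed from EV by -0.24 and from WT by -0.06, and its groups overlapped.

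The box C/D snoRNP guides 2'-O-methylation of ribosomal RNA. Fbl, its methyltransferase fibrillarin, read 4.56, 4.73 and 4.81 on the R882H arrays, 4.94, 4.76 and 4.91 on the WT arrays and 4.68, 4.80 and 4.81 on the EV arrays. Nop56, a scaffold protein, read 3.13, 3.24 and 3.36 on the R882H arrays, 3.39, 3.07 and 3.66 on the WT arrays and 3.54, 3.23 and 3.59 on the EV arrays. For both genes the 3 groups overlapped, and the differences between R882H and EV were -0.06 ± 0.14 for Fbl and -0.21 ± 0.19 for Nop56 (SE). With quantile normalization the Fbl difference was 0.06, the other sign. Nop58, the second scaffold, differed by -0.17 from EV and by 0.18 from WT.

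Nucleolar organisers were 3 genes, and their median difference between R882H and EV was -0.38. Ncl, nucleolin, which binds nascent ribosomal RNA and its chromatin, read 5.49, 5.58 and 5.91 on the R882H arrays, 5.73, 5.73 and 6.17 on the WT arrays and 6.05, 5.94 and 6.29 on the EV arrays. All R882H values were below all EV values and overlapped the WT values. The difference of Ncl from EV was -0.43 ± 0.19 (SE, limma adjusted p of 0.552). The dimmer of its 2 probes differed from EV by 0.02, the other sign. Nolc1, a chaperone of snoRNPs, read 4.34, 4.27 and 4.44 on the R882H arrays, 5.03, 4.93 and 4.99 on the WT arrays and 4.40, 4.15 and 4.86 on the EV arrays. Its WT values were above all R882H and all EV values. The differences of Nolc1 were -0.63 ± 0.19 between R882H and WT (adjusted p of 0.554) and 0.51 ± 0.19 between WT and EV (adjusted p of 0.780). Its second, dimmer probe gave -0.17 and -0.08 for the same comparisons, the other sign in the second. Mybbp1a, a nucleolar protein that binds Myb, differed by -0.38 from EV and by -0.39 from WT, and its groups overlapped.

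RNA polymerase I makes the precursor of ribosomal RNA. Polr1a, its largest subunit, read 1.14, 0.91 and 1.38 on the R882H arrays, 1.46, 1.25 and 1.53 on the WT arrays and 1.57, 1.22 and 1.70 on the EV arrays. Polr1b, the second largest subunit, read -0.29, -0.40 and -0.16 on the R882H arrays, 0.17, -0.35 and 0.16 on the WT arrays and 0.41, -0.51 and 0.39 on the EV arrays. R882H overlapped WT and EV for both, WT 2 and EV 2 lying low, and EV 2 was the lowest of the 9 arrays for Polr1b. The differences between R882H and EV were -0.35 ± 0.19 for Polr1a and -0.38 ± 0.27 for Polr1b (SE). Polr1c, a subunit shared with RNA polymerase III, differed by -0.39 ± 0.19. Ubtf, the factor that opens ribosomal RNA genes, was the 1 gene of the 44 with a higher mean in R882H than in EV. It read 9.88, 9.86 and 10.23 on the R882H arrays, 9.81, 9.71 and 9.83 on the WT arrays and 10.08, 9.89 and 9.93 on the EV arrays. All its R882H values were above all its WT values and overlapped the EV values. Its second probe turned the sign between R882H and WT, at -0.32 against 0.20 for the brighter probe. That second probe was far dimmer, reading -2.10 to -0.65 over the 9 arrays. It also turned the sign between WT and EV, at 0.38 against -0.18.

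The processome and later factors of the small subunit were 11 genes, all of lower mean in R882H than in EV, with a median of -0.27. Rrp12, known in yeast for the export of pre-ribosomes, read -1.41, -2.17 and -1.57 on the R882H arrays, -1.25, -1.43 and -1.11 on the WT arrays and -0.66, -1.61 and -0.75 on the EV arrays. Its EV 2 value lay among the R882H values. The difference of Rrp12 from EV was the largest among the 44 genes at -0.71 ± 0.29 (SE, limma adjusted p of 0.527), a mean 0.611-fold that of EV. Heatr1, which works early in processing and in polymerase I transcription, read 3.21, 3.17 and 3.50 on the R882H arrays, 3.97, 3.92 and 3.75 on the WT arrays and 3.40, 3.45 and 3.88 on the EV arrays. Every R882H value of Heatr1 was below every WT value, while R882H 3 lay above EV 1 and EV 2. The Heatr1 difference was -0.59 ± 0.18 from WT (adjusted p of 0.554) and -0.29 ± 0.18 from EV (adjusted p of 0.612). Ltv1, known in yeast for late assembly of the small subunit, read 1.96, 1.75 and 2.28 on the R882H arrays, 2.47, 2.23 and 2.40 on the WT arrays and 2.00, 1.76 and 2.25 on the EV arrays. Its R882H and EV values nearly coincided, and 2 of its 3 WT values lay above all others. The Ltv1 difference between WT and EV was 0.36 ± 0.19 (adjusted p of 0.875). Nop14, a processome subunit, had all R882H values below all EV values, at -0.51 ± 0.30. The others, Utp20, Wdr43, Wdr3, Rrp9, Noc4l, Rcl1 and Tsr1, had overlapping groups and differences from EV between -0.30 and -0.10.

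Large-subunit factors were 13 genes, again all of lower mean in R882H than in EV, with a median of -0.14. Pes1, which forms the PeBoW complex with Bop1 and Wdr12, read 0.53, 0.12 and 1.14 on the R882H arrays, 0.86, 0.90 and 0.75 on the WT arrays and 1.09, 0.75 and 1.39 on the EV arrays. Its R882H array 3 lay above all WT arrays, and the groups overlapped. The Pes1 difference from EV was -0.48 ± 0.27 (SE), against -0.12 ± 0.29 for Bop1 and -0.14 ± 0.23 for Wdr12. A second, dimmer Pes1 probe differed between R882H and EV by -0.02. Between WT and EV that probe gave 0.29, against -0.24 for the brighter. Nop16, a nucleolar factor and known Myc target in human cells, read 0.32, 0.12 and 0.72 on the R882H arrays, 0.41, -0.12 and 1.21 on the WT arrays and 1.23, 0.72 and 1.25 on the EV arrays. Its highest R882H value and its lowest EV value were less than 0.01 log2 units apart. The differences of Nop16 were -0.68 ± 0.33 between R882H and EV (limma adjusted p of 0.565) and -0.56 ± 0.33 between WT and EV (adjusted p of 0.875). Gnl3, nucleostemin, a GTPase of stem and dividing cells, read 2.30, 2.17 and 2.63 on the R882H arrays, 2.72, 2.29 and 2.49 on the WT arrays and 2.61, 2.38 and 2.42 on the EV arrays. Gnl3 overlapped in all groups, at -0.10 ± 0.18 from EV. Ddx18, an RNA helicase, read 1.61, 1.65 and 1.78 on the R882H arrays, 2.02, 1.92 and 2.16 on the WT arrays and 1.73, 1.72 and 2.00 on the EV arrays. All its R882H values were below all WT values, at -0.35 ± 0.15 (adjusted p of 0.614), and overlapped the EV values. On its brighter probe the helicase Ddx21 had R882H values below all WT and all EV values. The differences were -0.24 ± 0.13 and -0.19 ± 0.13, with the gap to EV under 0.01. On its dimmer probe R882H overlapped both groups, at -0.14 from WT and -0.31 from EV. Noc2l, Mrto4, Rrp1b, Ppan, Nop2 and Nle1 differed from EV by -0.57 to -0.13, and among them only Noc2l did not overlap.

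Among the metabolic and mitochondrial genes, Odc1, the first enzyme of polyamine synthesis, read 4.07, 4.05 and 4.23 on the R882H arrays, 4.06, 3.98 and 4.12 on the WT arrays and 4.11, 4.09 and 4.19 on the EV arrays. Cad, which starts pyrimidine synthesis, read 2.03, 2.26 and 2.11 on the R882H arrays, 1.69, 1.75 and 2.28 on the WT arrays and 1.97, 2.26 and 2.20 on the EV arrays. Both overlapped in all groups, Odc1 on its brightest probe, and differed from EV by -0.01, with SEs of 0.13 for Odc1 and 0.19 for Cad. The Odc1 difference was 0.10 with quantile normalization and -0.17 with the array median as the scale. On the dimmer Odc1 probes R882H differed from EV by -0.05 and 0.01, and from WT by 0.29 and 0.53. Between WT and EV those probes gave -0.34 and -0.52. On the dimmest, all WT values lay below all EV values. Srm, spermidine synthase, differed from EV by -0.58 ± 0.38 with wide overlap. C1qbp, a mitochondrial matrix protein, had all R882H values below all WT and EV values, at -0.28 ± 0.15 from WT and -0.23 ± 0.15 from EV. Tfb2m, a mitochondrial transcription factor, differed from EV by -0.22 ± 0.20.

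The comparison of R882H with WT asks what the substitution adds to the extra enzyme. Of the 44 genes 34 were lower in R882H, with a median of -0.18, against 51.7% of all genes lower and a median of -0.01. Differences ran from -0.63 for Nolc1 to 0.23 for Cad. None passed, the smallest adjusted p being 0.554, and 3 genes were lower at an unadjusted p under 0.05, Nolc1, Heatr1 and Ddx18, where 4.34% of all genes were. All R882H values were below all WT values in 6 genes (Gar1, Nolc1, Heatr1, Ddx21, Ddx18 and C1qbp), where 8.62% of all genes were, and above them in Ubtf, where 6.79% were. Each gene was read on its brightest probe. Within slide 2, which held 2 arrays of each group, the median was -0.28 and 39 of 44 genes were lower. Without WT 3 the median was -0.08, without R882H 2 it was -0.12, and without WT 2 it was -0.30.

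The comparison of WT with EV asks what added normal enzyme does. Of the 44 genes 30 were lower in WT, with a median of -0.14, against 48.3% of all genes lower and a median of 0.01. The range was -0.56 for Nop16 to 0.51 for Nolc1, and the smallest adjusted p was 0.780. Nolc1 alone had an unadjusted p under 0.05, and was higher, where 3.5% of all genes were higher and 2.45% lower. It was also the 1 gene whose WT values all lay above the EV values, where 5.7% of all genes did. On the brightest probe of each gene, Ubtf was the 1 gene whose WT values all lay below the EV values, where 4.37% did. Its dimmer probe gave the other sign, at 0.38 against -0.18. The median depended on single arrays. Without WT 2 it was 0.01 and 19 genes were lower, without EV 3 it was -0.03, and without EV 2 it was -0.23. Within slide 1, with 1 WT and 3 EV arrays, the median was -0.13 and 32 genes were lower.

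The comparison of R882H with EV depended on single arrays too. Its median was -0.15 without R882H 2 and -0.35 without R882H 3. With slide as a block it was -0.33, with 39 of 44 lower, although no slide held both groups. The comparisons share arrays, so their values are not independent. Ordered by group mean, 20 of 44 genes had R882H lowest, WT between and EV highest (45.5%, against 19.3% of all genes). Another 14 had R882H lowest and WT highest, 9 had WT lowest and EV highest, and Ubtf had WT lowest and R882H highest.

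The 44 genes are brighter than most. Split into 5 equal parts by mean signal, from dim to bright, the genes tested had median differences between R882H and EV of 0.21, 0.08, -0.02, -0.09 and -0.11. The share of all genes that were lower was 33.0%, 42.4%, 52.5%, 63.8% and 68.1%. The 44 genes fell into these parts as 0, 3, 7, 14 and 20, with medians of -0.13, -0.38, -0.13 and -0.24 in the last 4. In those 4 parts 3, 7, 14 and 19 of the 44 genes were lower. Their medians were below those of all genes in each of these 4 parts. The part of brightness in the difference was not tested further.

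**Figure D4:**
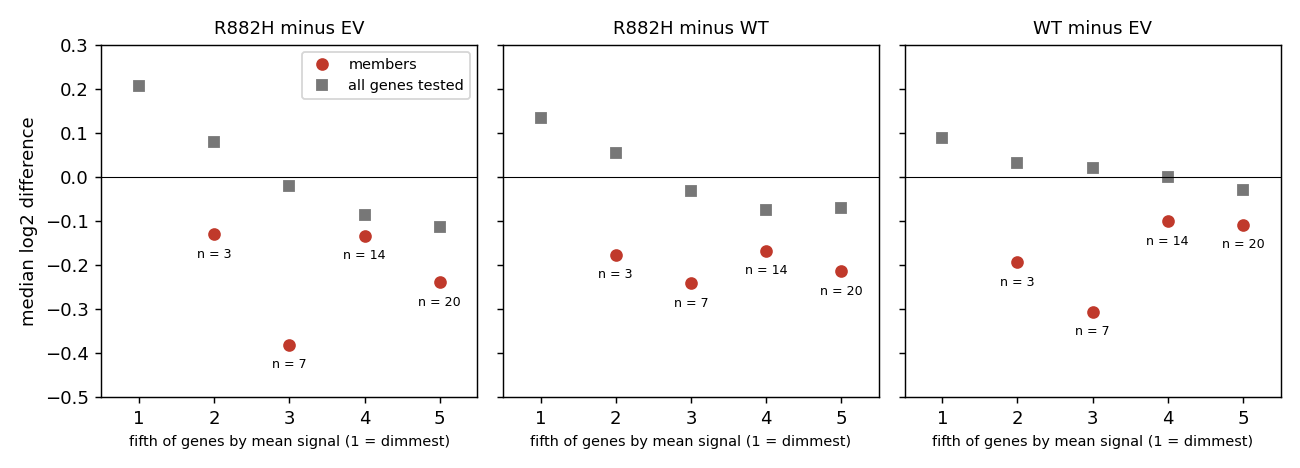
Median difference of all genes tested and of the 44 genes, in log2 units, in 5 equal parts of the genes ordered by mean signal from dim (1) to bright (5), for R882H minus EV, R882H minus WT and WT minus EV. For R882H minus EV the squares of all genes lie lower the brighter the part, at 0.21 in the dimmest and -0.11 in the brightest, and the 44 genes lie below it in parts 2 to 5.

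Genes of the same pathway outside the 44 were summarised from listed sets. Of 79 other ribosome assembly factors, all measured, 72 were lower in R882H than in EV, with a median of -0.25, and 63 were lower than in WT, with a median of -0.16. Between WT and EV 51 of the 79 were lower, with a median of -0.04. None of the 79 passed. Riok1, a kinase of small-subunit maturation, read -0.77, -0.63 and -0.22 on the R882H arrays against -0.17, 0.15 and 0.03 on the EV arrays, with no overlap (limma adjusted p of 0.521). Mdn1, an ATPase of large-subunit maturation, differed by -0.55 ± 0.22 (adjusted p of 0.521). Of 26 genes of RNA polymerases I and III and their cofactors, 18 were lower in R882H than in EV, with a median of -0.23. Polr3g, a subunit of RNA polymerase III that is known from pluripotent cells, differed by -0.73 ± 0.23 (adjusted p of 0.504).

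Sets that supply or use ribosomes leaned the same way without any gene passing. Neither these sets nor the other assembly factors were compared with genes of like brightness. Of 31 nucleotide and one-carbon genes 29 were lower in R882H than in EV, with a median of -0.29, and of 26 translation factors 25 were, with a median of -0.28. Umps, which completes UMP synthesis, differed by -0.42 ± 0.15 and Impdh1, an enzyme of GMP synthesis, by -0.40 ± 0.16 (adjusted p of 0.521 each). The translation initiation factors Eif3i and Eif4g1 differed by -0.56 ± 0.26 and -0.39 ± 0.19 (adjusted p of 0.559 each). Genes of DNA replication were lower in 16 of 17 and of mitosis in 14 of 16, with medians of -0.23 and -0.18. Orc1, of the origin recognition complex, differed by -0.50 ± 0.15 (adjusted p of 0.502), and Tpx2, a spindle assembly factor, by -0.55 ± 0.20 (adjusted p of 0.521). Of 10 genes of ribosome quality control and nucleolar stress 7 were lower, with a median of -0.12, counting 1 that was not well above background in either group. Markers of other blood lineages ran the other way. All 6 megakaryocyte markers were higher in R882H than in EV, with a median of 1.09. Their summed levels were 8.38 to 25.5 in R882H, 3.01 to 5.76 in WT and 3.51 to 13.7 in EV arrays. Among them Gp5 was well above background on 3 R882H arrays but on 1 WT and 1 EV array. It was kept through R882H alone, which favours a higher R882H mean. Gp1ba, a platelet adhesion receptor, differed by 1.85 ± 0.44 (adjusted p of 0.387). Of the measured erythroid markers 4 of 5 were higher, with a median of 1.11 and summed levels of 17.0 to 19.6 in R882H, 9.18 to 11.4 in WT and 5.501 to 23.3 in EV arrays. Of 4 B cell and 4 T and NK cell markers measured, 3 each were higher. The B cell marker Cd79a was likewise kept through R882H alone, with 3 R882H, 2 WT and 0 EV arrays well above background. None of these markers passed the adjusted threshold, and their part in the result was not tested.

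The 8 genes with CACGTG near the start were compared with the 31 that have a window without it. Between R882H and EV all 8 were lower, with a median of -0.28, and of the 31 others 30 were lower, with a median of -0.22. Between R882H and WT the medians were -0.23 with the motif and -0.18 without, and between WT and EV -0.09 with it and -0.17 without. Pes1, whose CACGTG lies at its start, differed from EV by -0.48, and Ltv1, whose CACGTG lies further in, by less than 0.01. The dimmer probe of Pes1 differed from EV by -0.02. These values were not tested against each other.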

How the data were processed

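RNA was hybridised to Agilent 1-colour arrays (design 028005), 9 arrays in 3 groups of 3. Per the file headers, Agilent Feature Extraction 10.10.1.1 made the linear, background-subtracted, detrended intensity that the authors deposited, with probes placed on mm9. The authors' deposited table of log2 values served as an alternative only. How it was computed is not given in the sources used. Each array had 59305 non-control spots, 154 to 184 outlier spots were left out, and none was saturated.

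From log2 intensity each array's 75th percentile was subtracted, and replicate spots were averaged per probe. Symbols came from RefSeq accessions (27235 of 55681 probes). The brightest probe of a gene was kept if 1 group or more had it well above background on each of its 3 arrays (13116 genes). The test was limma 3.58.1 under R 4.3.3 (lmFit and eBayes on all arrays, Benjamini-Hochberg over all genes, called at an adjusted p under 0.05), after a check on simulated data. The number of arrays limits the precision. The 44 genes and the lists were chosen with earlier results of these data known. All 44 are accounted for, with values by array for a panel of 14 and the 3 of smallest p per comparison, and, for other lists, some of the 2 genes of smallest p between R882H and EV. The rest of those are left out. Mycn and Mxd1 are named for the size of their differences, and Gp5 and Slamf1 for their background. Same-numbered arrays deviated together in WT and EV (r of 0.12, 0.22 and 0.33). The reported tests used no pairing, and the replicate block was run as an alternative only. R882H and EV gave 0.09, 0.20 and 0.28 and R882H and WT 0.07, 0.14 and 0.24, not all over 0.1. Alternatives were other normalizations, normexp (with the median signal, as a mean signal column was not used here), filters on dim probes, probe averaging, replicate or slide blocks, array weights, the authors' table, only 2 groups, each array left out, and, added after seeing the data, number 3 left out in all groups.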

Additional observations from a re-analysis of the deposited data

How the results depend on the processing

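No gene was called in any comparison under any of 19 alternatives. With the authors' table, columns as named, the median of the 44 genes was -0.0113 between R882H and EV with 26 lower, and 0.0711 between R882H and WT with 15 lower. Leaving out 1 array at a time, the median ran from -0.346 to -0.146 between R882H and EV (34 to 43 lower), from -0.295 to -0.0803 between R882H and WT (27 to 41 lower) and from -0.230 to 0.00956 between WT and EV (19 to 35 lower). The array median as the scale moved the median of all genes to -0.17 between R882H and EV and that of the 44 to -0.38, a gap of -0.21, which this choice of scale cannot change, since it adds 1 constant per array. Quantile normalization gave a gap of -0.15. With the replicate block no call changed, and 13 of the 44 were lower at an unadjusted p under 0.05 between R882H and EV, against 3 without it, while the count over all 13116 genes was 1787 against 1184. With array weights there were 13 of the 44 and 2116 of all genes. Without number 3 in any group, chosen after seeing the data, the medians were -0.30, -0.19 and -0.17. Leaving out the authors' table, 28, 27 and 19 of the 44 kept their sign under all 18 other alternatives for R882H against EV, R882H against WT and WT against EV. The median SE of 0.232 over all genes limits what 3 arrays per group can show.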
